A study of Danio rerio with 3 samples.

Results

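Pigment cell genes of the zebrafish larva are described here on the control array and on the arrays of larvae exposed to shoreline oil emulsion. The 9 genes listed were tyr, tyrp1b, dct, pmela, mitfa, oca2, gch2, xdh and pnp4a, and a gene was taken where a probe set (short probes whose signals are summed up in 1 value) carried its symbol and no other. This gave 4 genes, dct, gch2, mitfa and tyr, read by 5 probe sets out of 15617 on the array. The 5 remaining genes had no such probe set and have no value here, so of the genes listed only those of black and yellow pigment were measured. A search by Entrez gene ID found the same 5 probe sets.

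The larvae (Danio rerio, of a strain that the labels do not name) were all collected for RNA at 192 h post-fertilization (hpf), and each group was read on 1 Affymetrix array. One group lay over 250 mg of emulsion from Gulfport, spread on the cup floor, from 0 to 48 hpf and the other from 48 to 96 hpf. They then spent 144 h and 96 h in clean medium, while controls were kept in medium without emulsion. Cups held 30 embryos in 100 ml, and the labels do not say how many larvae went into an RNA sample. With no replicates there is no test, and every difference below describes these 3 arrays.

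In zebrafish, melanophores carry black melanin, xanthophores carry yellow pteridines and carotenoids, and iridophores reflect light from crystals of purines. All of these cells come from the neural crest. The retinal pigment epithelium of the eye also makes melanin, with many of the same enzymes, but comes from the neural tube. In whole larvae a lower value can mean fewer cells of a type or less RNA per cell, which cannot be told apart here.

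None of the genes with a usable signal differed from control by 1.5-fold in either exposure. The largest difference was that of dct, which was 1.31-fold lower after exposure from 48 to 96 hpf. The second bright gene, gch2, was 1.14-fold lower after exposure from 0 to 48 hpf. The probe sets of tyr and mitfa read so dim that they lay among probe sets with no zebrafish target, so no difference in these transcripts was detectable.

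The gene dct encodes dopachrome tautomerase, an enzyme of melanin synthesis that acts after tyrosinase. Its log2 value was 9.16 on the control array, 8.99 on the 0 to 48 hpf array and 8.77 on the 48 to 96 hpf array. Control was highest and the later exposure lowest. This order was shared by 1209 of the 5492 genes kept, or 22.0% (genes whose highest value reached 7.21, the median of all deposited values).

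The log2 difference of dct from control was -0.17 after the early exposure and -0.39 after the late one. Among the genes kept, 25.3% lay at least as far from 0 in the first comparison and 6.41% in the second. The SD between bright probe sets of the same gene was 0.11 and 0.16 in these comparisons, over 718 genes with several probe sets, so the late difference was 2.38 times this technical spread. That spread does not hold the variation between clutches or RNA samples. Between the exposed arrays dct differed by -0.22, late minus early, and 19.0% of genes lay at least as far from 0.

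The gene gch2 encodes GTP cyclohydrolase 2, which starts pteridine synthesis and is expressed in cells that make yellow pigment. Its bright probe set read 10.88 on the control array, 10.69 after the early exposure and 10.74 after the late one. Both exposed arrays lay below control and close to each other. The log2 differences were -0.19 and -0.14, which 20.4% and 44.6% of the genes kept reached or passed. In the late comparison the difference was smaller than the SD between probe sets of a gene, and late minus early it was 0.05.

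The other probe set of gch2 was dim, at 5.52, 5.48 and 5.53 on the control, early and late arrays. It gave differences of -0.049 and 0.0014 from control, and 4 or 5 of the 44 probe sets without a zebrafish target reached its value on each array, so no difference was detectable with it.

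The gene tyr encodes tyrosinase, the rate-limiting enzyme of melanin synthesis. Its values were 5.44 on the control array, 5.51 after the early exposure and 5.57 after the late one. The gene mitfa encodes the transcription factor that melanophores need to form, and it read 5.24, 5.49 and 5.52 in the same order. Both genes read higher on the exposed arrays, by 0.07 and 0.13 for tyr and by 0.25 and 0.28 for mitfa, while dct and gch2 read lower.

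Both lay far under the array medians, which were 7.22 for control, 7.20 for early and 7.23 for late. A set of 44 probe sets for bacterial transcripts and artificial tags, which match no zebrafish gene, ranged from 3.33 to 6.42 on the control array. Of these, 5 reached the value of tyr and 7 that of mitfa. The same holds for the exposed arrays, where 5 of 44 reached each gene. The values of tyr and mitfa thus lay within the range of this background in every group, and no difference in their transcripts was detectable at this brightness.

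**Figure D1:**
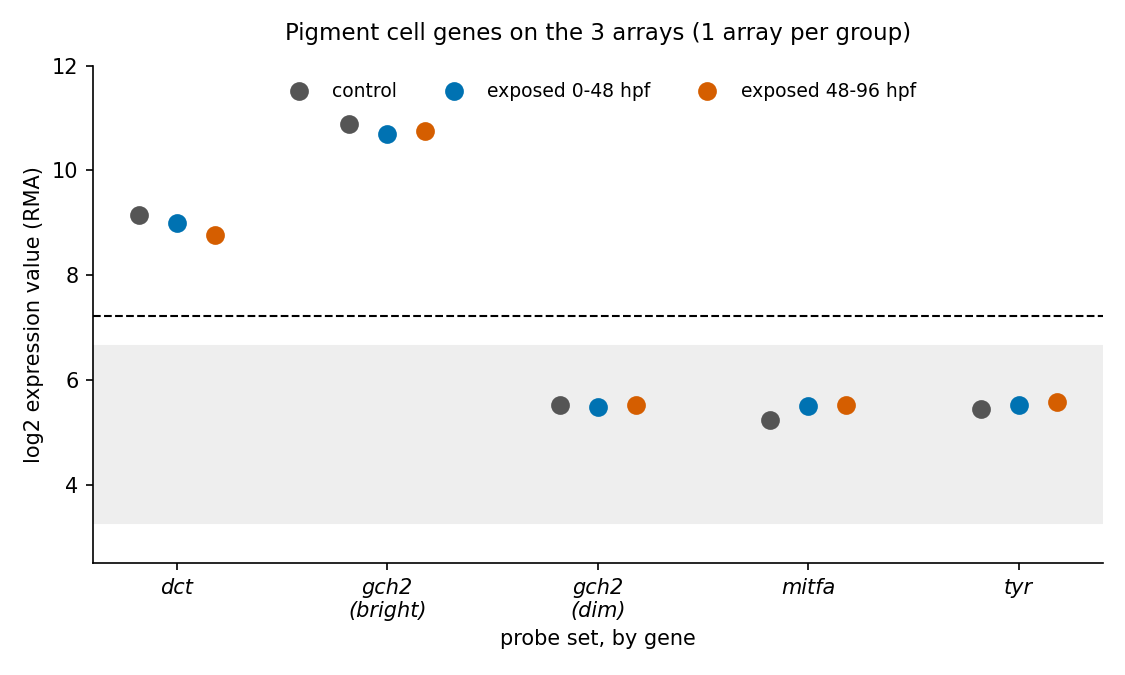
Log2 expression values of the 5 probe sets on the y axis, by gene on the x axis, with 1 point for each array (control, exposed from 0 to 48 hpf, exposed from 48 to 96 hpf). The grey band spans the 44 probe sets without a zebrafish target over the 3 arrays and the dashed line is the median of all values, 7.21; only dct and the bright probe set of gch2 lie above both.

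Dim probe sets as a whole read higher on the late array. Probe sets with a mean between 5 and 6 had a median difference from control of 0.09 after the late exposure and -0.0063 after the early one. Those with a mean between 8 and 9, where dct lies, had medians of -0.034 and -0.017. The late difference of tyr (0.13) was thus close to that of probe sets as dim as it is, while mitfa (0.28) and dct (-0.39) lay farther from theirs.

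Set against the 992 probe sets within 0.25 of its mean value, tyr lay above 60.8% of them in the late comparison and above 72.6% in the early one. For mitfa these shares were 83.7% and 96.0% of 959 probe sets. For dct, 4.05% of 987 probe sets of like brightness lay lower in the late comparison and 15.5% in the early one. With the trend on brightness removed, the late difference of dct was -0.34 and that of mitfa 0.20.

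**Figure D2:**
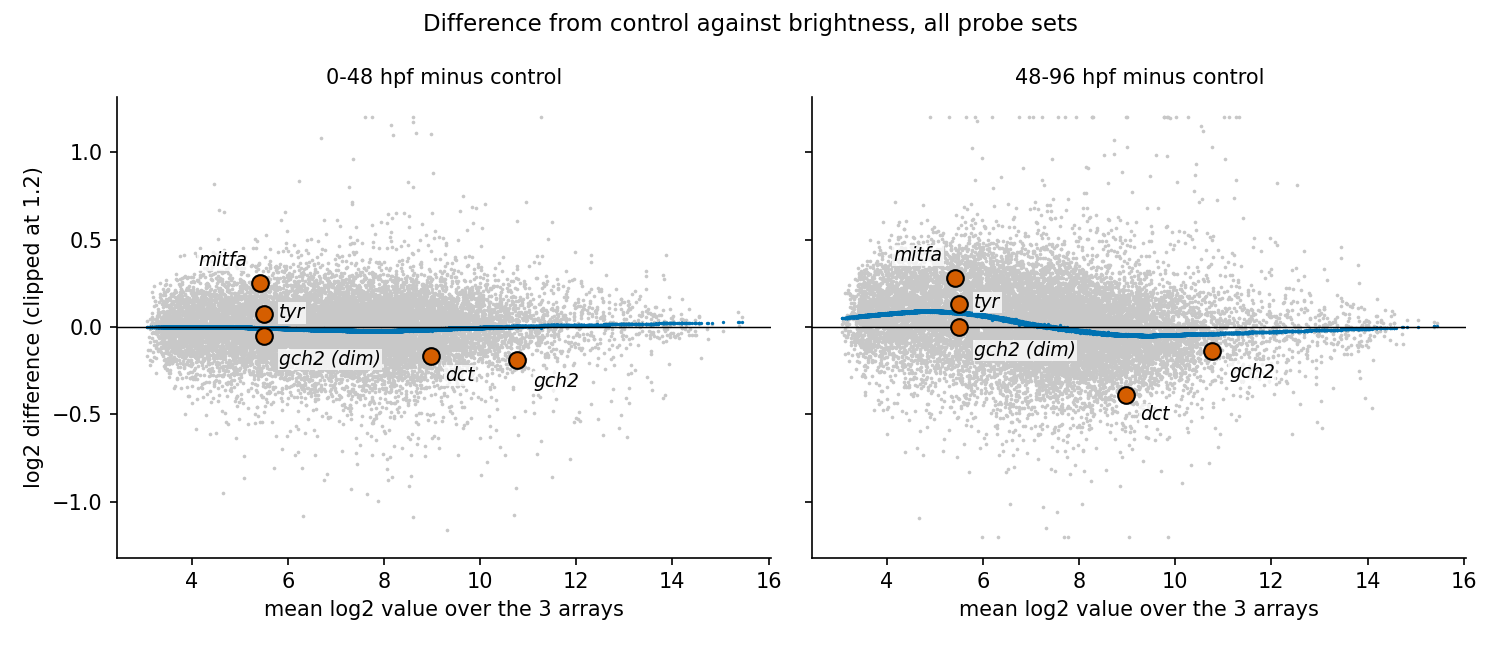
Log2 difference from control (y axis, clipped at 1.2) against the mean log2 value over the 3 arrays (x axis) for all 15617 probe sets in grey, with the lowess trend in blue and the pigment cell probe sets as orange points. In the late panel the trend lies above 0 for dim probe sets and below 0 near dct, which sits at -0.39.

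Of the 2 pigment cell genes kept, 0 passed 1.5-fold in any comparison. The background over the 5492 genes kept was 0.401% at least 1.5-fold higher and 0.601% lower for early against control, 1.11% and 0.674% for late against control, and 1.22% and 0.528% for late against early. With shares this small over all genes, 0 of 2 does not set the pigment cell genes apart.

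At a smaller size, a log2 difference of 0.32, dct alone was counted, as lower in the late comparison. The background at that size was 5.61% lower and 4.9% higher for late against control. It was 3.55% lower and 2.02% higher for early against control, and 3.93% lower and 4.15% higher for late against early. The median of dct and gch2 was -0.18 for early against control and -0.26 for late against control, beside medians of -0.0012 and -0.020 over all genes kept. With tyr and mitfa included, the medians over 4 genes were -0.047 and -0.0016.

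**Figure D3:**
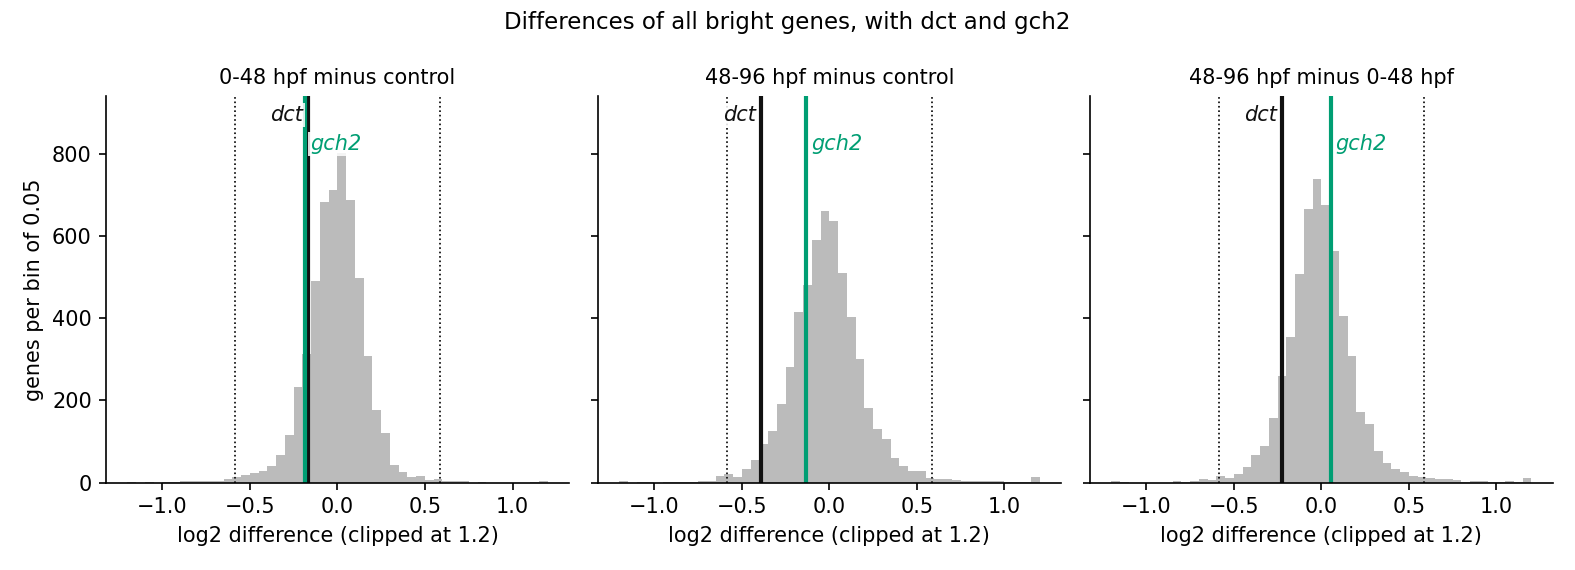
Histograms of log2 differences (x axis, clipped at 1.2) over the 5492 genes kept, in genes per bin (y axis), for the comparisons of each exposed array with control and with each other. Vertical lines mark dct in black and gch2 in green and dotted lines mark 1.5-fold; both genes lie inside the dotted lines in every panel, and dct is farthest out at -0.39 in the late comparison.

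All of these differences are relative to the bulk of each array. The bacterial transcripts added at hybridisation read lower on the early array than on the control array. Scaling on them would add 0.51 to every difference of the early array from control. On that scale dct would be at 0.34 and gch2 at 0.32 above control in the early comparison, still below the median gene, and dct would be at -0.77 between the late and the early array. Every late minus early difference would shift by -0.55, and the late comparison with control by -0.040. The 3' minus 5' signal, which grows as RNA degrades, was 2.12 for actin on the control array, 2.02 on the early and 2.28 on the late one, and 0.379, 0.432 and 0.342 for gapdh. The late array was thus highest by actin and lowest by gapdh, and the part of RNA quality in the pigment values was not tested.

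The genes whose profile over the 3 arrays lay nearest to that of dct, by Euclidean distance after centring each gene on its mean, were fxr2, nr0b2a and btbd9. Their distances were 0.0074, 0.012 and 0.013 on the log2 scale. The first encodes an RNA-binding relative of the fragile X protein and the next an orphan nuclear receptor that represses transcription. In all, 63 of the 5492 genes kept lay within 0.05 of dct, a wider limit than these 3 distances, so other genes also lay near it. How common such a likeness over 3 arrays is for other genes was not computed.

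Other genes of melanin synthesis and melanosomes mostly had no probe set of their own symbol or a dim one. Of 28 listed, 7 had a probe set and 3 of these were kept. At a log2 difference of 0.32, 1 of the 3 was counted as lower in the late comparison and 0 in the early one. The shares counted as lower over all genes kept were 5.61% and 3.55%. The median differences of the 3 were -0.054 and 0.026. The gene counted was slc24a4a, a cation exchanger of the family that includes the pigment gene slc24a5, with values of 7.73 on the control array, 7.55 early and 7.32 late. Its values descended in the order seen for dct, an order shared by 22.0% of all genes kept.

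A proton pump subunit used in acidifying melanosomes and lysosomes, atp6v0ca, was at -0.054 in the late comparison by its brightest probe set. Its other bright probe set read -0.46, so the probe sets of this gene disagreed. The trafficking gene vps18, which serves delivery to lysosomes and melanosomes, differed by 0.03 and 0.10 in the early and late comparisons.

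A gene just under the brightness limit, pmelb, was singled out after its values were seen, because it is a paralog of the listed pmela, which encodes a fibril protein of the melanosome. It read 7.0 on the control array, 6.61 early and 6.27 late, in the descending order shared by 22.0% of the genes kept. On the control array 0 of 44 probe sets without a zebrafish target reached its value, on the early array 1 did and on the late array 2. Its exposed values thus lay within the range of this background, and no fold is given. Whether its probes also bind the transcript of pmela was not tested. Among the other measured genes of the 28 listed, only slc24a4a had this descending order by the brightest probe set. The gene rab32a, also under the limit, read 6.94 on the control array, 6.95 early and 6.72 late.

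The receptors of the melanophore lineage were at background. The probe sets of kita, the receptor tyrosine kinase that melanophores need for migration and survival, and of mc1r, the melanocortin receptor, lay in the range of probe sets without a zebrafish target. On the control, early and late arrays kita read 4.91, 5.18 and 4.96, and mc1r read 5.39, 5.31 and 5.52. None of the 6 measured genes of hormones and receptors that set pigment dispersal, such as pomca and pmchl, reached the brightness limit.

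In the list of pteridine chemistry and xanthophores, the genes kept lay above control on the late array. Of 25 listed genes, 12 had a probe set and 7 were kept. All 7 were above control on the late array, with a median of 0.23, beside -0.020 over all genes, of which 45.4% were above control. On the early array 5 of 7 were, with a median of 0.10, beside 49.6% of all genes. Among all 12, dim ones included, 10 were above control on the late array. The other 2, under the brightness limit, were the xanthophore genes pax7a, a transcription factor (-0.31), and slc2a15b, a sugar transporter family member (-0.17). A share over all genes, dim ones included, was not computed. Dim probe sets as a whole had late medians of 0.09 for a mean between 5 and 6 and 0.04 between 6 and 7. The dim genes above control were csf1ra (0.07) and slc2a11b (0.08) in the first range and sox5 (0.15) in the second. At a log2 difference of 0.32 1 of the 7 was counted as higher in the late comparison and 0 in the early one, and 0 as lower, and at 1.5-fold none was. Over all genes kept, the late and early shares at 0.32 were 4.9% and 2.02% higher and 5.61% and 3.55% lower. At 1.5-fold they were 1.11% and 0.401% higher and 0.674% and 0.601% lower.

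The gene counted was scarb1, a scavenger receptor through which carotenoids enter cells and which is also used for lipoproteins in other tissues. It read 7.93 on the control array, 8.20 early and 8.43 late, and its other bright probe set gave a late difference of 0.32 beside 0.50. The next were qdpra, a reductase that recycles tetrahydrobiopterin, at 0.31 in the late comparison, and bco1, an enzyme that cleaves carotenoids, at 0.27. The probe set used for qdpra read 7.26 on the control array, just over the limit of 7.21. The other probe set of qdpra, which was dim, gave -0.15 early and 0.03 late. The late differences of gchfr, which regulates GTP cyclohydrolase, and pcbd1, of pterin recycling, were 0.23 and 0.19. These genes also act outside pigment cells, and the bright probe set of gch2 itself was below control (-0.14). Defining xanthophore genes in the list were dim, among them csf1ra, a receptor that xanthophores need, at 5.19 on the control array.

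In liver and gut, where some of these genes are also used, 6 of 7 kept marker genes were above control on the late array, with a median of 0.11. Of all genes kept, 45.4% were above control there, with a median of -0.020. The mean log2 value of these markers was 11.74 on the control array, 11.83 early and 11.99 late, led by fabp10a, a fatty acid-binding protein of liver, at 0.82 in the late comparison, with vtnb, vitronectin, at 0.38 and uox, urate oxidase, at 0.36. Their part in the pteridine values was not tested.

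Genes of iridophores and of purine synthesis, which supplies the crystals, showed no common direction. Of 25 listed, 11 had a probe set and 9 were kept. Their median was 0.05 in the early comparison and -0.038 in the late one. At a log2 difference of 0.32 1 of 9 was counted as higher in the early comparison, beside 2.02% of all genes kept. In the late comparison 2 of 9 were counted as lower, beside 5.61% of all genes kept. The gene counted in the early comparison was atic, the enzyme of the last steps to inosine monophosphate. Its values were 9.33 on the control array, 9.83 early and 9.47 late. It stood highest on the early array, where its difference was 0.50.

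The 2 lower genes of the late comparison were sox9b, at -0.71, and aqp3a, an aquaporin, at -0.33. The first is also a regulator of cartilage formation, its dim probe set read 0.41 in the same comparison, and it was the only gene of the list past 1.5-fold. Of all genes kept, 0.674% were at least 1.5-fold lower in the late comparison. The purine enzymes gart and paics were at 0.15 and 0.14 in the early comparison and at -0.038 and -0.14 in the late one. Other purine enzymes kept went both ways. In the early and late comparisons adsl was at 0.21 and 0.26, and ppat at 0.05 and 0.17. For adss1 the values were -0.013 and 0.11, and for impdh1b -0.076 and -0.19.

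The kept regulators of the neural crest and of pigment cell fate lay within a log2 difference of 0.32 of control by their brightest probe sets. Of 16 listed, 11 had a probe set and 7 were kept, with medians of -0.13 in the early and -0.10 in the late comparison. Over all genes kept the medians were -0.0012 and -0.020. The factor tfap2c passed the brightness limit through the late array alone, where it was above control (0.19). Without it the middle late values are those of snai2 (-0.10) and tfap2a (-0.17), so the late median of the list would be lower. At a log2 difference of 0.32 0 of 7 were counted in either. Over all genes kept, 2.02% were higher and 3.55% lower at that size early, and 4.9% and 5.61% late. With shares this small, 0 of 7 does not set these regulators apart. The transcription factor sox10, which activates mitfa, read 7.67 on the control array, 7.78 early and 7.69 late. The values of tfap2a, a neural crest factor, were 10.48, 10.34 and 10.31. For snai2, another crest factor, the differences were 0.16 and -0.10, and for hdac1, a histone deacetylase of all tissues, 0.07 and -0.20.

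**Figure D4:**
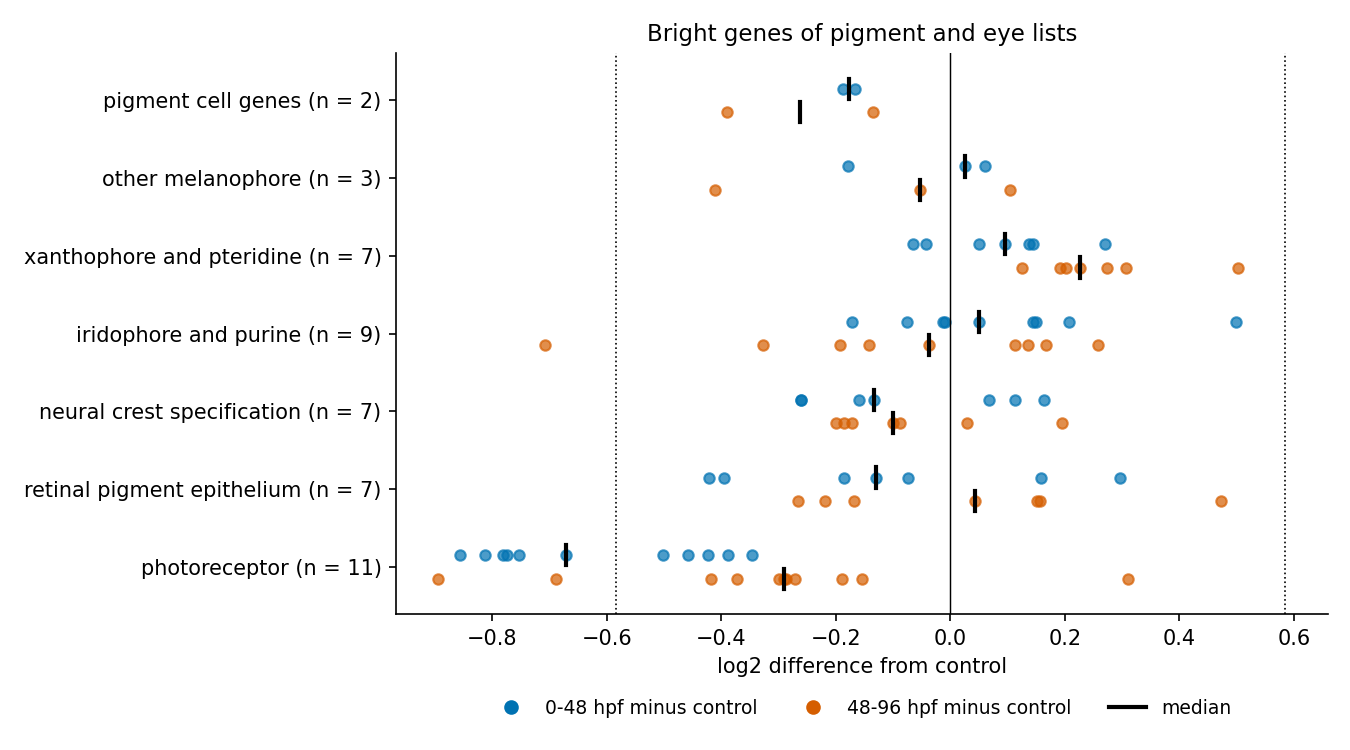
Log2 differences from control (x axis) of the genes kept in each list (y axis, with the number of genes), for the early exposure in blue and the late exposure in orange, with black bars at the medians and dotted lines at 1.5-fold. Pigment cell genes (n = 2) lie left of 0 in both exposures, the 7 xanthophore and pteridine genes kept lie right of 0 in the late one, and photoreceptor genes have the lowest medians.

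Because dct is also expressed in the retinal pigment epithelium, markers of that tissue and of the photoreceptors beside it were read too. Of the 7 kept markers of the epithelium, 5 were below control on the early array (median -0.13) and 3 on the late array (median 0.04). Among all genes kept, 49.6% were above control on the early array and 45.4% on the late one. At a log2 difference of 0.32 2 of the 7 markers were counted as lower in the early comparison, beside 3.55% of all genes kept. These were rpe65a, the isomerase of the visual cycle, at -0.42 and rlbp1a, a retinaldehyde-binding protein, at -0.40. In the late comparison they were at -0.17 and -0.22, and rgrb, an opsin of this tissue, was at 0.47. This list also holds genes of other tissues, such as bmp4. That gene read 7.10, 6.92 and 7.26 on the control, early and late arrays. It passed the brightness limit through the late array alone, where it counts as above control (0.15). Without bmp4 the middle late values are those of rpe65a (-0.17) and otx2b (0.04), so the late median would lie below 0. The sign of that median thus rests on bmp4. The late mean of the markers without bmp4 was not computed. The mean log2 value of the 7 markers was 8.63 on the control array, 8.53 early and 8.66 late. This mean was lowest on the early array, whereas dct was lowest on the late one. The markers differed among themselves. On the early array rpe65a, rlbp1a, otx2b and bmp4 were lowest, and on the control array rgrb and sulf1. The marker stra6 was lowest on the late array, at -0.13 and -0.27 in the early and late comparisons. It had the order seen for dct, which 22.0% of all genes kept shared.

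Photoreceptor markers were below control in 11 of 11 cases on the early array (median -0.67) and in 10 of 11 on the late array (median -0.29). Of these, 6 and 2 were at least 1.5-fold lower, beside 0.601% and 0.674% of all genes kept. On the early and late arrays 49.6% and 45.4% of all genes kept were above control, with medians of -0.0012 and -0.020. The genes with the largest difference in any comparison were gnat1, the rod transducin, at -0.77 and -0.89, pde6c, the cone phosphodiesterase, at -0.86 and -0.37, and guca1c, an activator of guanylate cyclase, at -0.81 and -0.27 in the early and late comparisons. The part of the eye in the dct values was not tested.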

How the data were processed

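RNA of whole larvae was measured on 3 arrays, 1 per group as the labels give them. The deposited values are log2 expression values per probe set, made by the authors with RMA (background correction, quantile normalization, summary over probes) per the submitters' processing notes; the software behind it is not stated there. Arrays give no read depth, and their number limits the precision.

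Probe sets were named by the platform annotation of 2016 (10802 with 1 symbol, 135 with several, 4680 with none). The brightest probe set stood for a gene, and 5492 of 8793 genes reached 7.21 on some array. Differences were counted at 1.5-fold, with a log2 difference of 0.32 and 2-fold as alternatives; no p-value was computed. Of each list the 3 kept genes with the largest absolute difference were to be named, besides the listed pigment genes and the 3 genes nearest to dct; other genes named were chosen after their values were seen. The pigment genes, lists and sizes were chosen with earlier results of these data known. The counting step was tested on simulated data. Alternatives changed normalization, filter and choice of probe sets; a lowess correction (span 0.3, statsmodels 0.14.6) was added after the data were seen. Promoter motifs and sequences were not analysed here.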

Additional observations from a re-analysis of the deposited data

Results flagged for a closer look

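The neural crest factor tfap2c was below control on the early array (-0.26) and above it on the late array (0.19), each by more than the SD between probe sets of a gene, which is a technical spread only. It read 7.19, 6.93 and 7.39 on the control, early and late arrays and passed the brightness limit of 7.21 through the late array alone. Its other probe set, which was dim, gave -0.026 and 0.23. Each exposure has 1 array, so the difference between the exposures was not tested.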

How the results depend on the processing

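No paired analysis was possible because each group has 1 array; for the same reason no array could be left out. Values were set beside the SD between probe sets of a gene, and 112 of 126 recomputed values moved by less than that or kept their count. Some of these could not move. None of the 5 probe sets of the pigment genes is marked as cross-hybridising, so the 18 values of that setting were fixed. Only gch2 has more than 1 probe set, so averaging could not move the values of the other genes. A filter at the 75th percentile of all values kept the same 2 genes, which fixed its 6 values. A count of 0 at 1.5-fold fixes 0 at 2-fold, which held for 3 values. The count of 112 thus does not measure how stable the values are. Scaling on the spike-ins, which adds 0.51 to every early difference from control, put dct at 0.34, gch2 at 0.32, mitfa at 0.76, tyr at 0.58 and the median of the pigment genes at 0.33 in the early comparison. Late minus early it put them at -0.77, -0.50, -0.52 and -0.49, with a median of -0.64, and counted 1 gene, dct, past 1.5-fold. On that scale every late minus early difference shifts by -0.55, close to the 1.5-fold limit of 0.58. The share of all genes past 1.5-fold on that scale was not computed, so the count does not set dct apart. Without the brightness filter the medians over 4 genes were -0.047 (early) and -0.0016 (late). At a log2 difference of 0.32, 1 gene was counted as lower in the late comparison with control, beside 5.61% of all genes kept, and at 2-fold 0. Leaving the spike-in scale aside, dct ranged from -0.40 to -0.34 in the late comparison. This was over median centring, quantile normalization and the lowess correction, which was chosen after seeing the data. Averaging of probe sets and leaving out those marked as cross-hybridising could not change dct, which has 1 probe set, not so marked. For gch2, with averaging of its probe sets included, the early difference ranged from -0.19 to -0.12 and the late one from -0.14 to -0.067. The low signal of tyr and mitfa limits what can be read from them.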
